A study of Homo sapiens with 8 samples.

Results

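Of the 44116 peaks of dimethylated lysine 4 of histone H3 (H3K4me2) listed for control cells on chromosomes 1 to 22, 1848 (4.19%) stood alone, with no other peak of the same list within 100 kb. These isolated peaks were taken from the pooled siCtrl list, and the distance was counted from edge to edge. The other 42268 peaks of that list served for comparison. The cells are RD, an established human rhabdomyosarcoma line, grown at passages p10 to p15. They were transfected with Silencer Select siRNA s618 against LSD1 (siLSD1) or with a control siRNA (siCtrl), given new medium after 8 hours and harvested after 96 hours. Chromatin was immunoprecipitated with an H3K4me2 antibody and sequenced in 2 biological replicates per siRNA, and 4 input libraries were not analysed here. The authors deposited a peak list for each of the 4 ChIP libraries and 1 list per siRNA for the pooled replicates. A single siRNA sequence against LSD1 was used, and the knockdown was not measured in these lists. The lists name no genes, so that RD markers were not checked.

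H3K4me2 marks promoters and enhancers, and nucleosomes with this mark usually lie in clusters around active genes. LSD1, also called KDM1A, is a histone demethylase, and mono- and dimethylated lysine 4 of H3 are its best known substrates. A peak without neighbours typically lies in a gene-poor stretch of chromosome, where long genes with few regulatory elements and solitary distal elements are found. Such stretches often fall in the bands that stain dark with Giemsa, which are rich in A and T and poor in genes. Many long genes of gene-poor regions code for adhesion proteins of the nervous system, among them cadherins and teneurins.

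The lists differed in length, which bears on every presence value below. On chromosomes 1 to 22 there were 33137 peaks in siCtrl replicate 1, 43713 in siCtrl replicate 2, 49654 in siLSD1 replicate 1 and 48468 in siLSD1 replicate 2. The pooled siLSD1 list held 55656. Read counts are not in the lists, so depth is unknown, and its part in the length of a list was not tested. Nothing says how separate the cultures of the biological replicates were, and their spread may be partly technical. Intervals given for shares are exact (Clopper-Pearson) 95% binomial intervals and cover counting error only.

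Isolated peaks were narrower and of lower score than the other peaks of the same list. These values come from the list that chose the members and are a description with no test. Median width was 1435 bp (quartiles 1049 and 2252 bp) against 1946 bp (1363 and 3019 bp) for the other peaks. The authors' score, whose scale is not stated and which is used here only to rank peaks within a list, had a median of 195.99 against 298.87. The 1848 isolated peaks covered 3.38 Mb, and the other peaks covered 102 Mb. The members still spanned nearly the whole range of the list, from 462 to 18021 bp in width and from 50.04 to 3193.13 in score.

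When all peaks were divided by score into 4 groups of equal size, isolated peaks were spread unequally among them. The lowest group, with scores up to 110.38, held 603 isolated peaks (32.6%, 30.5 to 34.8%). The next groups held 484 (26.2%) and 389 (21.0%), and the highest, with scores of at least 997.84, held 372 (20.1%, 18.3 to 22%). Within each score group the isolated peaks were narrower. Their median width was 961 bp against 1173 bp in the lowest group, 1308 against 1571 bp and 1996 against 2321 bp in the middle groups, and 2898 against 3572 bp in the highest. The lower median width of isolated peaks was thus present at every level of score.

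Width and score fell with distance mainly beyond 100 kb. Median width was 1962 bp for the 6200 peaks whose nearest neighbour was under 1 kb away, 1955 bp at 5 to 20 kb and 1779 bp at 50 to 100 kb. It was 1518 bp for the 1220 isolated peaks at 100 to 200 kb, 1346.5 bp for the 526 at 200 to 500 kb, and 1253.5 bp for the 102 at 500 kb or more. Median score was 303.19 at 50 to 100 kb and 208.91, 166.91 and 170.93 in the 3 isolated groups. The nearest distance had a median of 157978 bp among isolated peaks and of 8439 bp among the others.

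**Figure D1:**
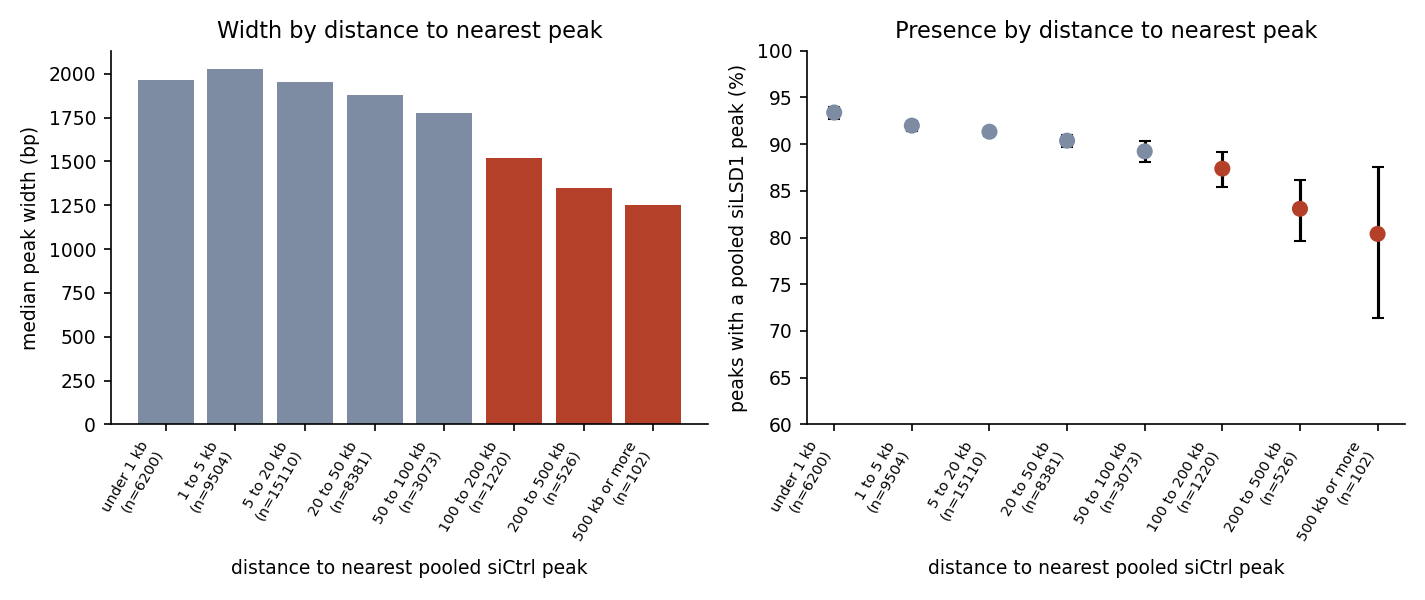
Median peak width in bp (left) and percent of peaks with an overlapping peak in the pooled siLSD1 list (right, with exact 95% intervals) for pooled siCtrl peaks grouped by the distance to their nearest neighbour. Isolated peaks are red and other peaks grey, and the right axis starts at 60%. Width is 1518 bp or less in the 3 isolated groups, and presence falls from 93.4% under 1 kb to 80.4% at 500 kb or more.

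The distance threshold cut through a continuous range. Just inside it lay a peak in 3p21.31, at chromosome 3 from 47202846 to 47207992, whose nearest neighbour was 100.046 kb away. A pair of peaks in 6q14.1, at chromosome 6 from 82853273 to 82855422 and from 82955516 to 82958773, faced each other across 100.093 kb. Just outside were peaks in 1p33 (99.85 kb), 5p14.1 (99.756 kb) and 20q11.21 (99.745 kb). The 3 peaks inside had scores between 615.41 and 1216.07, and the 3 outside had 1377.93, 60.75 and 376.72.

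Isolated peaks were found on all 22 chromosomes but made up very different shares of their peaks. Chromosome 13 had the highest share, with 73 of 810 peaks isolated (9.01%, 7.13 to 11.2%), and chromosome 4 came next with 164 of 2042 (8.03%, 6.89 to 9.30%). Chromosomes 18 and 5 followed with 7.18% and 6.55%. At the other end were chromosome 19, with 8 of 1951 (0.410%, 0.177 to 0.806%), chromosome 22 with 11 of 993 (1.11%) and chromosome 17 with 28 of 2130 (1.31%). Chromosome 13 had 7.03 peaks per Mb and chromosome 19 had 33.0 per Mb, so that the order of the shares ran largely opposite to peak density. Counted per Mb of chromosome, isolated peaks themselves ran from 0.135 on chromosome 19 to 0.858 on chromosomes 4 and 18.

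In the lists from siLSD1 cells, which the rule did not use, chromosome 13 also had the highest share and chromosomes 19 and 22 the lowest. Applied to the pooled siLSD1 list, the 100-kb rule found 1677 isolated peaks among 55656 (3.01%). They made up 6.84% of the peaks on chromosome 13, 5.14% on chromosome 5 and 5.05% on chromosome 4. At the low end they made up 0.507% on chromosome 19 and 0.405% on chromosome 22, so that the order within each end changed. In the single libraries the share on chromosome 13 was 13.8% and 9.13% for siCtrl replicates 1 and 2, and 10.4% and 8.05% for siLSD1 replicates 1 and 2. On chromosome 19 the 4 values in the same order were 1.05%, 0.516%, 0.630% and 0.618%. All 4 values of chromosome 13 were thus above all 4 of chromosome 19. Over chromosomes 1 to 22 the share of isolated peaks was 6.20% and 4.22% in the siCtrl libraries and 3.58% and 3.52% in the siLSD1 libraries. Both siLSD1 lists were longer than both siCtrl lists, and both had the lower share.

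**Figure D2:**
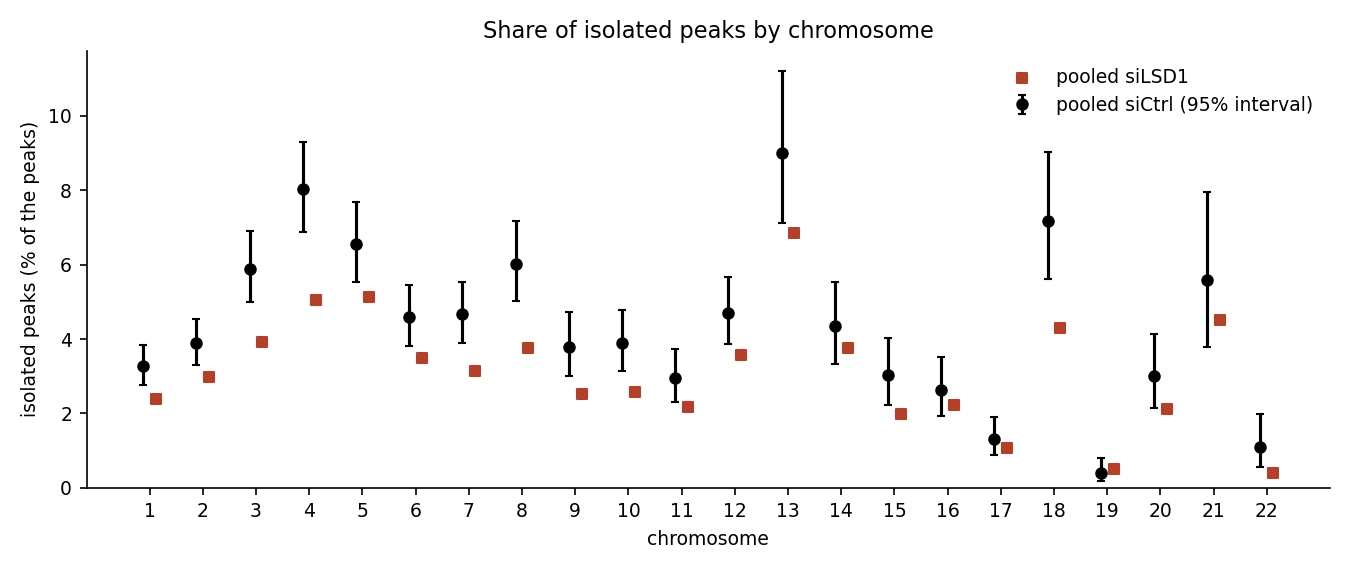
Isolated peaks as a percent of all peaks of a list on each chromosome, in the pooled siCtrl list (black circles, exact 95% intervals) and in the pooled siLSD1 list (red squares, same rule). Chromosome 13 is highest and chromosomes 19 and 22 are lowest in both lists, with 9.01% and 6.84% on chromosome 13.

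Dark Giemsa bands held a larger part of the isolated peaks than of the others. The darkest class took 421 isolated peaks (22.8%, 20.9 to 24.8%) and 7.28% of the other peaks (7.03 to 7.53%), and the next class 324 (17.5%) against 9.59%. Light bands took 701 (37.9%, 35.7 to 40.2%) against 58%. In the pooled siLSD1 list, the darkest class took 25.2% of isolated and 7.82% of other peaks, and light bands 35.8% and 57.2%. Per Mb of band, there were 0.574 isolated peaks in light bands, 0.474, 0.744, 0.838 and 0.913 in the 4 grades from palest to darkest stain, and 0.143 in centromere bands. Other peaks ran from 20.1 per Mb in light to 6.67 per Mb in the darkest bands, with 1.57 per Mb in centromere bands. Whole band lengths were used, with no allowance for bases that reads cannot reach.

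Single bands showed where isolated peaks gathered. They occurred in 578 of the 811 bands of chromosomes 1 to 22. The bands with most were 1q41 with 17 of 132 peaks, 1p31.1 with 16 of 149, and 12q12 and 21q21.1 with 12 each, of 55 and 45. These counts take no account of band length, and 1p31.1 is 15.2 Mb long. In 12q21.32, a band of 2.3 Mb, 8 of 11 peaks were isolated. In 4q28.3, 10 of 23 peaks were isolated, and all 10 were also in the pooled siLSD1 list. In 5 bands with at least 3 peaks every peak was isolated, namely 13q21.33, 12p12.2, 15q11.1, 3p26.3 and 7p12.2. All 16 peaks of these 5 bands recurred in the pooled siLSD1 list, where 85.8% of all isolated peaks did. In other bands fewer recurred, such as 0 of 3 in 1q32.1.

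Isolated peaks also followed one another along the chromosome. They formed 1104 uninterrupted runs, of which 682 were single peaks, 236 were pairs and 186 held 3 or more, with 694 members in the last kind. The longest runs had 9 members. One lay in 12q21.31 and 12q21.32, at chromosome 12 from 86303031 to 88537776, where 14.5 kb of 2.23 Mb was under members. The other was in 7q31.32 and 7q31.33, at chromosome 7 from 123671846 to 125456159. The chromosome 12 run had 6 and 11 peaks in siCtrl replicates 1 and 2 and 7 and 12 in siLSD1 replicates 1 and 2. The replicates of each siRNA thus differed more there than the siRNAs did. A run of 6 members on chromosome 13, from 81621818 to 91370339, stretched over 9.75 Mb of 13q31.1 to 13q31.3 with only 9.42 kb under members.

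The isolated peaks of highest score were found throughout the libraries. Scores of 3100 recur as a ceiling, shared exactly by 38 isolated and 1251 other peaks, with 2 and 153 above it. All 40 isolated peaks at or above that value were present in all 4 libraries, as were all 1404 other peaks there. The 2 above it lay in 8q21.13, at chromosome 8 from 80523837 to 80526438, and in 15q26.1, at chromosome 15 from 92395394 to 92397972. Among the tied peaks, the 8 widest are named here, since the score could not order them.

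For 4 of these 10 peaks a gene of the band is named as a landmark. Each of these 4 was a single peak in every library. In 3q13.11, the band of ALCAM, an immunoglobulin-type adhesion molecule, the peak at chromosome 3 from 105084093 to 105089319 had its nearest neighbour 163 kb away and a gap of 1005 kb on the other side. Its width was 4954 and 5136 bp in siCtrl replicates 1 and 2 and 4944 and 5593 bp in siLSD1 replicates 1 and 2, and the groups overlapped. In 3q26.31, the band of NLGN1, a synaptic adhesion protein, the peak from 173112281 to 173117475 measured 4001 and 5192 bp, and 4171 and 5399 bp, in the same order. The groups overlapped there too, and both replicates 2 were the wider. In 11q14.1, the band of the teneurin gene TENM4, the peak of chromosome 11 from 79147876 to 79152663 measured 4649 and 4750 bp after siCtrl and 4722 and 4529 bp after siLSD1. In 1p31.1, the band of the neuronal growth regulator NEGR1, a peak of chromosome 1 from 72746592 to 72751625 measured 4115 and 5147 bp after siCtrl and 5173 and 5509 bp after siLSD1. Of these 4 peaks it alone had no overlap between the groups, with the siLSD1 values higher. Among all regions found in all 4 libraries, 30.3% were broader after siLSD1 without overlap. The band of each gene is general knowledge, other genes lie there too, the genes were singled out after the bands were seen, and no peak was assigned to a gene.

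The remaining named peaks at the ceiling were in 6p24.1, 6p22.3, 4p15.33 and again 1p31.1. The one in 6p24.1, at chromosome 6 from 12007925 to 12014744, was split into 2 and 1 library peaks after siCtrl and into 3 and 2 after siLSD1. These peaks together covered 6.42 and 6.69 kb of it after siCtrl and 6.68 and 6.80 kb after siLSD1, and the groups overlapped. The peak in 4p15.33, at chromosome 4 from 15002593 to 15007315, was 1 peak in each library, with widths of 4596, 4723, 4671 and 4875 bp in the order siCtrl replicates 1 and 2, siLSD1 replicates 1 and 2. Those in 6p22.3, from 22145942 to 22151025, and in 1p31.1, from 70031966 to 70036735, were 5084 and 4770 bp wide in the pooled siCtrl list. A wider but weaker peak, also in 1p31.1, at chromosome 1 from 75595094 to 75604129, was covered over 6.99 and 8.36 kb after siCtrl and 8.32 and 8.96 kb after siLSD1, and the groups overlapped. In 2q35, at chromosome 2 from 215669380 to 215676278, the covered lengths were 6.43 and 6.12 kb, then 5.97 and 6.25 kb. Both were split into 2 peaks in replicate 1 of each siRNA and were 1 peak in replicate 2. The covered lengths in this paragraph count only bases inside the pooled siCtrl peak, so parts of library peaks beyond its borders are left out.

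The most remote peaks were of both kinds, strong and weak. The peak farthest from any other lay in 4q13.1, at chromosome 4 from 62065562 to 62068119, with gaps of 3984 and 2526 kb to its neighbours. This band carries ADGRL3, an adhesion receptor of the latrophilin family. The peak was in every library, with a width of 2327 and 2746 bp after siCtrl and 2248 and 2463 bp after siLSD1. In the pooled siLSD1 list too it stood 2526 kb from the nearest other peak. In 13q21.1, the band of the protocadherin gene PCDH17, the peak of chromosome 13 from 58203078 to 58206834 was 1479 kb from its nearest neighbour. Library peaks covered 3.19 and 3.75 kb of it after siCtrl and 0.988 and 3.51 kb after siLSD1. The groups overlapped, siLSD1 replicate 1 was lowest, and siLSD1 replicate 2 had 3 peaks there. In 9p23, the band of the receptor phosphatase gene PTPRD, a peak of chromosome 9 from 10612115 to 10613777 was 1753 kb from its neighbour and present in all libraries. Here too the genes are landmarks from general knowledge, singled out after the bands were seen. No peak was assigned to a gene, and for the remote peaks that follow none is named.

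Other remote peaks were faint and appeared in some libraries only. The peak in 16q21, at chromosome 16 from 61341729 to 61342563, was 2308 kb from its neighbour and was found in siCtrl replicate 2 and siLSD1 replicate 1. The peak in 13q21.31, from 63764162 to 63765371, was missing from siCtrl replicate 1 alone. Peaks in 5p14.1, at chromosome 5 from 25189123 to 25190237, and in 13q31.1, from 83262495 to 83263134, were found in siCtrl replicate 2 and in no other library. The peak in 7q11.21, at chromosome 7 from 61820012 to 61822922, was in 3 libraries but not in siLSD1 replicate 2 or the pooled siLSD1 list. Remote peaks near centromeres were a minority of the members. Within 1 Mb of a centromere band lay 42 isolated peaks (2.27%) and 1.17% of the other peaks, and 25 of the 42 were in all 4 libraries. The strongest of the 42, in 2p11.1, and the third strongest, in 19q11, were among these 25.

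Isolated peaks recurred less often than other peaks in every list examined. The siCtrl libraries went into the pooled list that chose the members, and the siLSD1 libraries did not. In siLSD1 replicate 1, 1342 isolated peaks had an overlapping peak (72.6%, 70.5 to 74.6%) against 82.8% of other peaks (82.4 to 83.1%). In siLSD1 replicate 2 it was 1390 (75.2%, 73.2 to 77.2%) against 84.1% (83.7 to 84.4%). In siCtrl replicates 1 and 2 the shares were 56.5% and 85.6% against 67.4% and 89.8%. The share of isolated minus that of other peaks was -10.2 and -8.85 percentage points in siLSD1 replicates 1 and 2, and -10.8 and -4.22 points in siCtrl replicates 1 and 2. It was in the same direction in 4 of 4 libraries, and no test over peaks was made.

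The siRNA did not set the shares apart beyond the spread between replicates. A mean of 73.9 ± 1.84% of isolated peaks (SD, n = 2) was found in a siLSD1 library and 71.1 ± 20.5% (SD, n = 2) in a siCtrl library. The difference of 2.84 points had an exact two-sided permutation p of 1, where 2 libraries against 2 allow no p below 0.333. Other peaks gave 83.4 ± 0.907% and 78.6 ± 15.9% (SD, n = 2 each, exact permutation p = 1). The difference for isolated peaks was -11.7 points without siCtrl replicate 1, the shortest list, 17.4 points without siCtrl replicate 2, and -6.76 points with lists of equal length.

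The lower recurrence lay mainly among peaks of low score. In the highest score group all 372 isolated peaks were in each of the 4 libraries. In the next group 96.7% and 98.5% were in siLSD1 replicates 1 and 2, against 98.5% and 98.6% of other peaks. In the lowest group the shares in siLSD1 replicates 1 and 2 were 42.0% and 46.1%, against 51.2% and 54.9%. In the second group they were 70.5% and 73.8%, against 80.8% and 82.1%. In both of these lower groups the share of isolated peaks was the lower one in each siLSD1 library, and the differences were not tested. In the siCtrl libraries the lowest group gave 14.1% and 61.0% for isolated peaks, against 15.3% and 62.2% for other peaks, a smaller gap than in the siLSD1 libraries. In the second group siCtrl replicate 1 had 45.5% against 56.4%, and siCtrl replicate 2 had 93.6% against 96.6%.

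**Figure D3:**
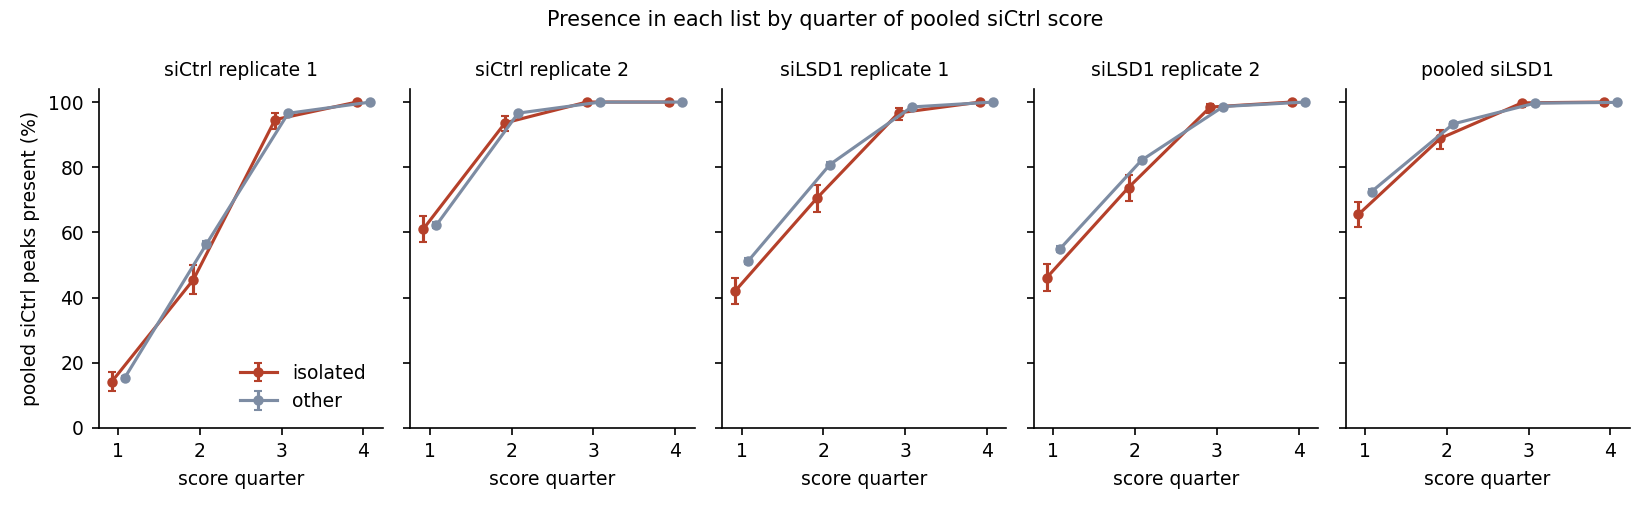
Percent of pooled siCtrl peaks with an overlapping peak in each list, by group of pooled siCtrl score (1 lowest, 4 highest), for isolated (red) and other (grey) peaks with exact 95% intervals. Both kinds reach about 100% in group 4. In the siLSD1 libraries the isolated peaks lie below the others in groups 1 and 2, with 42.0% against 51.2% for group 1 of replicate 1.

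Replicates agreed less on isolated peaks. Both siLSD1 libraries had a peak at 64.7% of isolated peaks and at 77.0% of the others, and 1 of the 2 had it at 18.5% and 12.8%. For the siCtrl libraries, both had a peak at 52.4% of isolated and 64.6% of other peaks. All 4 libraries had a peak at 863 isolated peaks (46.7%, 44.4 to 49.0%) and at 60.1% of the others. Among isolated peaks this held for 10 of 603 in the lowest score group and for 130 of 484, 351 of 389 and 372 of 372 in the next ones. Among other peaks it held for 3.51%, 41.2%, 94.3% and 99.97%, from the lowest to the highest group. No library had a peak at 97 isolated peaks (5.25%), of which 90 were in the lowest score group, and at 3.39% of the others. Only siCtrl replicate 2 had a peak at 155 isolated peaks (8.39%) and at 4.49% of the others, for both kinds more than any other single library.

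In the pooled siLSD1 list, 1585 isolated peaks had an overlapping peak (85.8%, 84.1 to 87.3%) and 263 did not. The absent share of 14.2% compares with 8.8% of all pooled siCtrl peaks and 8.56% of the other peaks. Of the 263, 208 were in the lowest score group, 54 in the second, 1 in the third and 0 in the highest. Of the 3620 other peaks absent there, 2866, 707, 36 and 11 were in these groups, so that absence lay mainly at low score in both kinds. With pooled lists of equal length, 75.4% of isolated and 84.3% of other peaks were present. A peak in both siCtrl libraries and in neither siLSD1 library was found at 27 isolated peaks (1.46%), beside 1.31% of all pooled siCtrl peaks, so that this kind of loss was about as frequent as in the whole list.

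The absent peak of highest score, and the third widest member, lay in 8q24.21, at chromosome 8 from 129185566 to 129192811. The siCtrl libraries had peaks of 3606 and 3826 bp there and siLSD1 replicate 1 had 1 of 14354 bp, while siLSD1 replicate 2 had none. Next came 14q32.12, at chromosome 14 from 92788809 to 92790397, which was found in siCtrl replicate 2 alone. The peaks in 15q14, at chromosome 15 from 36134043 to 36135614, and in 10p12.31, at chromosome 10 from 19239784 to 19241051, were in both siCtrl libraries and in neither siLSD1 library. A peak in 1q31.3, from 196742930 to 196744193, was in siCtrl replicate 2 alone. The widest isolated peak, in 2q24.2 at chromosome 2 from 162269579 to 162287599, was 18021 bp long and also had no pooled siLSD1 peak. Yet each library had peaks over it, covering 12.2 and 17.1 kb after siCtrl and 14.8 and 17.8 kb after siLSD1. Its absence from the pooled list is therefore not matched by the libraries.

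Many isolated peaks had company in the siLSD1 lists. Of the 1585 found in the pooled siLSD1 list, 1002 (63.2%, 60.8 to 65.6%) were still without any other peak within 100 kb, and 583 had a neighbour. In the siLSD1 libraries 78.4% and 73.3% of the isolated peaks present were alone, and in the siCtrl libraries 98.2% and 89.3%. The rule demands that the pooled siCtrl list be empty around a member, which favours the siCtrl libraries by construction. The reverse rule gives the other side. Of the 1677 peaks isolated in the pooled siLSD1 list, 1143 (68.2%) had a pooled siCtrl peak, and 984 of these (86.1%, 83.9 to 88.0%) were alone there. With the pooled siLSD1 list cut to the length of the pooled siCtrl list, 78.8% of the isolated peaks still present were alone.

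**Figure D4:**
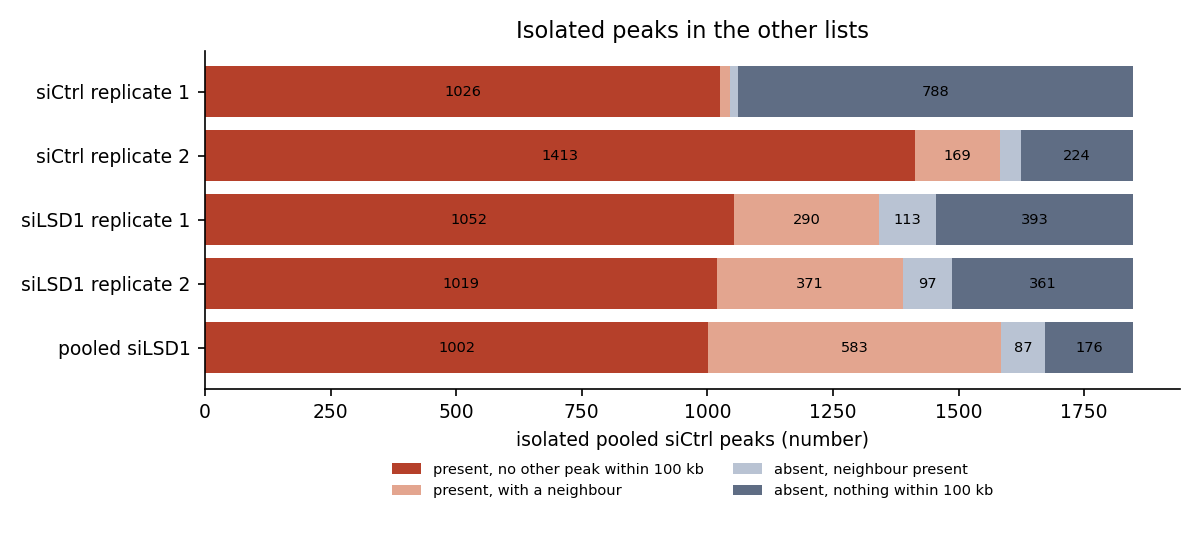
The 1848 isolated pooled siCtrl peaks in each of the other lists, split by whether the list has an overlapping peak and whether it has another peak within 100 kb. In the pooled siLSD1 list 1002 are present and alone, 583 are present with a neighbour, 87 are absent with a peak nearby and 176 are absent with nothing nearby.

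Additional peaks in the surroundings were counted in each library. The 100-kb flanks of the isolated peaks spanned 353 Mb, 12.3% of the 22 chromosomes. Peaks with their midpoint there and no overlap with the pooled siCtrl list numbered 32 and 217 in siCtrl replicates 1 and 2 and 508 and 615 in siLSD1 replicates 1 and 2. Both siLSD1 values were higher than both siCtrl values, with means of 561.5 ± 75.7 and 124.5 ± 131 (SD, n = 2 each, exact two-sided permutation p = 0.333, the smallest possible). The siCtrl libraries went into the pooled list that the rule requires to be empty there. Their lower counts thus follow at least partly from the rule, and the comparison cannot tell the siRNA from it. With lists of equal length the 4 counts were 32, 13, 83 and 103, and the difference of the means was 70.5 in place of 437. The pooled siLSD1 list had 1012 such peaks, whose median width was 1094 bp. Their median score of 84.185 was close to the 86.14 of such peaks elsewhere. Both siLSD1 libraries had a peak at 212 of them, 171 of these without any siCtrl library, and 277 were in no library list.

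The flanks of isolated peaks took in less than their part of the additional peaks. The rule picks these flanks as stretches without another pooled siCtrl peak, so they are poor in peaks by choice. The rates are a description and were not tested. Of the 15187 pooled siLSD1 peaks that overlapped no pooled siCtrl peak, 6.66% lay in the flanks. This is 2.86 per Mb against 5.61 per Mb elsewhere on the 22 chromosomes. The siLSD1 libraries had 1.44 and 1.74 per Mb in the flanks and 3.27 and 3.47 elsewhere. The siCtrl libraries, lowered in the flanks by the rule, had 0.0906 and 0.614 against 0.199 and 0.939 per Mb. In the pooled siLSD1 list 670 isolated peaks (36.3%) had a separate peak within 100 kb, at a median distance of 33891 bp. It was within 5 kb at 95 of them. The 670 include 87 members that had no overlapping pooled siLSD1 peak themselves. These neighbours were not limited to additional peaks, and some may overlap a pooled siCtrl peak that lies beyond 100 kb.

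Isolated peaks found in both pooled lists were slightly wider in the siLSD1 list. Where a list had more than 1 overlapping peak, widths here are of the one that shared most bases. This was so at 3.47% of these isolated peaks in the pooled siLSD1 list. That peak was a median of 1.05 times as wide as the pooled siCtrl peak (quartiles 0.955 and 1.19), against 1.07 times for other peaks, and 64.7% and 67.3% were wider. From the lowest to the highest score group the median ratio of isolated peaks was 1.20, 1.05, 1.02 and 1.03, and that of other peaks was 1.20, 1.09, 1.04 and 1.03. At the 863 isolated peaks found in all libraries, median width was 1714 and 2064 bp in siCtrl replicates 1 and 2 and 1830 and 2037 bp in siLSD1 replicates 1 and 2. The groups overlapped, and siCtrl replicate 1 was lowest. Other peaks found in all libraries had 2005 and 2374 bp, and 2174 and 2440 bp, in the same order.

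The breadth of the mark was tested over all merged regions of the 4 libraries. Peaks of the libraries that overlapped were merged, and the kilobases under peaks in each region were compared with limma over 44464 regions on chromosomes 1 to 22 and X with a peak in at least 2 libraries. Isolated peaks lay in 1517 of these regions, and 342 of the 1848 reached no tested region. After Benjamini-Hochberg adjustment in limma, 0 isolated regions were wider and 0 narrower (0% of all regions in either direction), and no adjusted p was below 0.155. By the unadjusted limma p, at a threshold of 0.05, 61 isolated regions were wider (4.02%) and 29 narrower (1.91%), beside 13.4% and 2.24% of all tested regions. Regions with other pooled siCtrl peaks gave 6.93% and 2.53%. The value over all regions includes those without a pooled siCtrl peak, which isolated regions by their choice cannot be.

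The median isolated region had 0.141 kb more under peaks after siLSD1, and the median of all tested regions was 0.212 kb. For regions with other pooled siCtrl peaks it was 0.174 kb. The median for isolated regions was -0.183 kb with quantile normalization, which moved the median of all regions to -0.0913 kb, and -0.064 kb without siCtrl replicate 1. Groups did not overlap in 386 isolated regions that were broader after siLSD1 (25.4%) and 124 that were narrower (8.17%), beside 35.6% and 8.38% of all tested regions. Among regions in all 4 libraries these were 215 of 868 (24.8%) and 66 (7.60%), beside 30.3% and 9.62% of all such regions. Regions with other pooled siCtrl peaks, the closer comparison, gave 31.2% broader and 9.43% narrower, and 31.0% and 9.68% among those in all 4 libraries. The share of broader isolated regions was below these values in both counts, and this difference was not tested.

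The largest rises without overlap were of about 2 kb. In 14q21.2, at chromosome 14 from 45718399 to 45723225, the siCtrl libraries had 1.56 and 3.62 kb under peaks and the siLSD1 libraries 4.69 and 4.63 kb, a difference of 2.07 ± 0.813 kb (SE, limma adjusted p = 0.415). In 11q22.2, at chromosome 11 from 102631050 to 102633745, the siCtrl libraries had no peak and the siLSD1 libraries had 1.42 and 2.70 kb (difference 2.06 ± 0.540 kb, limma adjusted p = 0.211). This band carries the cluster of matrix metalloproteinase genes, whose enzymes cut extracellular matrix, but the region was not assigned to a gene. The pooled siCtrl peak there had a score of 51.8, near the lower limit of the list. In 4q27, from 120983149 to 120989981, the values were 3.01 and 5.14 kb after siCtrl and 5.45 and 6.79 kb after siLSD1. In 21q21.1, from 23085399 to 23088499, they were 0 and 0.801 kb, then 1.64 and 3.10 kb. In 6q12, from 64514119 to 64517346, they were 0 and 2.31 kb, then 2.99 and 3.23 kb. In 3 of these 5 regions siCtrl replicate 1 had no peak.

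The largest falls were losses of the whole peak in at least 1 siLSD1 library. In 1p35.1, at chromosome 1 from 34091568 to 34093417, the siCtrl libraries had 1.62 and 1.71 kb and neither siLSD1 library had a peak (difference -1.66 ± 0.232 kb, SE, limma adjusted p = 0.155). The same held in 7q31.1, at chromosome 7 from 108363536 to 108365236, with 1.70 and 1.39 kb after siCtrl, and in the 15q14 peak described above, with 1.28 and 1.5 kb. In 10q11.22, at chromosome 10 from 48951530 to 48953435, the siCtrl libraries had 0.725 and 1.91 kb and the siLSD1 libraries none, although the pooled siLSD1 list had a peak of 2241 bp there. In 5q14.1, at chromosome 5 from 77289256 to 77292293, the values were 1.86 and 2.68 kb after siCtrl and 1.36 and 0 kb after siLSD1. None of these 10 regions passed the limma threshold of 0.05.

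**Figure D5:**
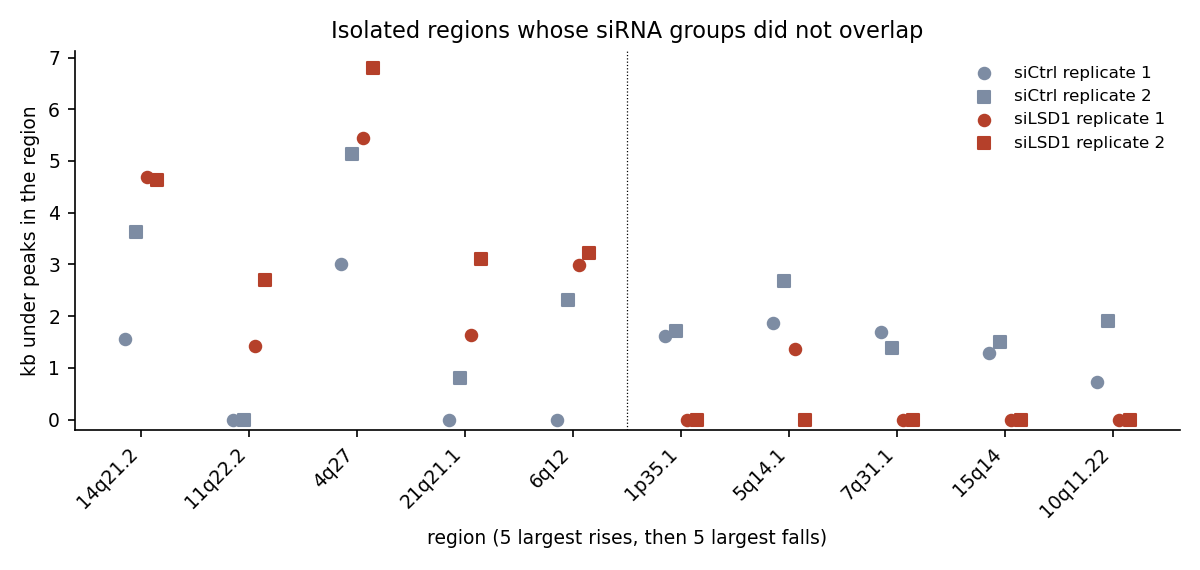
Kilobases under peaks in each library for the 10 isolated regions with the largest rise (left of the dotted line) or fall (right) among those whose siRNA groups did not overlap. Grey is siCtrl and red siLSD1, circles are replicates 1 and squares replicates 2. In 14q21.2 the siLSD1 libraries have 4.69 and 4.63 kb and the siCtrl libraries 1.56 and 3.62 kb.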

How the data were processed

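H3K4me2 ChIP-seq peak lists of 4 RD libraries and 2 pooled lists were used. Per the submitters' processing notes, the authors aligned reads with Bowtie to hg19. Versions, peak calling settings and the way the replicates were pooled are not stated. The deposited score is the authors' value per peak and was used only within a list. Peaks outside chromosomes 1 to 22 were left out, which removed 744 to 1289 peaks per list, except in limma, which also used chromosome X. Coordinates are hg19, counted from 1. Bands came from circlize 0.4.16. An overlap of 1 bp counted as present. Python 3.11.15, pandas 2.3.3, scipy 1.17.1 and R 4.3.3 with limma 3.58.1 (trend and robust options) were used. Interval steps and limma were tested on simulated data. The shifts simulated for limma were larger than the largest rises named here, so its power for changes of this size was not tested. Lists give no depth, so precision is known only from the replicates.

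Regions were named by rules: the 10 highest scores (ties by width, chosen after the values were seen), the 8 most remote, 3 on each side of the threshold, the 6 highest-scoring absent from the pooled siLSD1 list, the 5 widest, the 6 highest-scoring near a centromere, and the 5 largest rises and falls in covered kb without overlap. Gene annotation of hg19 was not used here. The members and rules were chosen with earlier results of these data known. Alternatives were other distances, score cuts, overlaps and list lengths, limma settings, and leaving out each library. The reverse rule, and limma on regions in all libraries, were added after seeing the data.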

Additional observations from a re-analysis of the deposited data

How the results depend on the processing

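At 50 kb and 200 kb in place of 100 kb, 4921 and 628 peaks were isolated. Their median width was 1634 and 1317 bp, their median score percentile 46.4 and 36.5 (40.5 at 100 kb), and 31.5% and 46.8% lay in the 2 darkest band classes (40.3% at 100 kb). Of these peaks 87.9% and 82.6% were in the pooled siLSD1 list. The gap to other peaks was -3.68 and -8.68 points there, and -5.83 and -13.2 points in the siLSD1 libraries (-5.67 and -9.51 at 100 kb). When only the upper 50% of the list by score was kept and isolation was counted anew within it, 2418 peaks were isolated. Their median width was 2629.5 bp, against 2937 bp for the other peaks kept. Their median score percentile among the kept peaks was 45.4, against 50.6. Counting peaks of both pooled lists as neighbours left 1178 of the 1848 isolated peaks of the full list. With equal list lengths 75.4% were in the pooled siLSD1 list and 78.8% of those were alone. The gaps were then -8.88 and -13.2 points, the siRNA difference in presence was -6.76 points, and the difference in flank peaks was 70.5 (437 with full lists). By score group, from lowest to highest, 65.5%, 88.8%, 99.7% and 100% were in the pooled siLSD1 list. The gap turned to 0.0813 and 0.103 points in the upper groups, and in the siLSD1 libraries it was -0.999 and 0.00938 points. Under the reverse rule 68.2% were present and 86.1% of those alone.

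Leaving out each library gave siRNA differences in presence from -11.7 to 17.4 points, in flank peaks from 344.5 to 529.5, and in median breadth from -0.064 to 0.381 kb. Quantile normalization gave -0.183 kb. The rule lowers the siCtrl counts of flank peaks, so the differences in flank peaks here and above favour siLSD1 by construction. In limma 0 isolated regions were called under any of these settings. Replicate numbers are shared between the siRNAs, but nothing says that they mark shared cultures. The correlation of deviations of same-numbered libraries over regions was 0.198. With the replicate block limma called 0 isolated regions, with 74 wider and 33 narrower at an unadjusted p under 0.05. Depth is unknown, and 2 libraries per siRNA limit every comparison.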

Other observations

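Chromosome X, left out of the members, had 130 isolated peaks among 1103 in the pooled siCtrl list (11.8%, exact 95% interval 9.94 to 13.8%), a higher share than on any of the 22 other chromosomes. Their median width was 1565.5 bp. Of these 130, 108 (83.1%, 75.5 to 89.1%) were in the pooled siLSD1 list, against 89.4% of the other peaks of that chromosome. They were found in siCtrl replicates 1 and 2 at 75 and 112, and in siLSD1 replicates 1 and 2 at 85 and 97.

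Of the 863 isolated peaks with a peak in all 4 libraries, 861 also had a pooled siLSD1 peak. The exceptions were the 18021-bp peak in 2q24.2 and a peak of 1255 bp in 21q11.2, at chromosome 21 from 15068531 to 15069785. In 2q24.2 the nearest pooled siLSD1 peak was 719 bp away. Conversely, 19 isolated peaks without a peak in any library had one in both pooled lists.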
